A study of Mus musculus with 15 samples.

Results

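H3K4me3 was mapped in EL4 cells by chromatin immunoprecipitation and sequencing (ChIP-seq) in 2 libraries, replicates 1 and 2, of the 15 samples of the study. The lists of called H3K4me3 intervals of both libraries were read on the 19 autosomes, each replicate alone and after overlapping intervals were merged, and each of 47042 autosomal GRCm38 genes was asked for an interval within 1 kb of either end of its gene model. EL4 is a murine T lymphoblast lymphoma line from the C57BL/6N strain, obtained from ATCC and grown without treatment, and its formaldehyde-fixed chromatin was precipitated with a Millipore antibody against H3K4me3. The same cells gave 2 lists each for H3K9Ac, H3K27Ac, H3K27me3, H3K36me2 and ATAC-seq, so that 12 samples had a list, and neither input nor RNA-seq was analysed here. The paper calls the replicates technical, so any p-value measures the spread between libraries and not between cultures. The lists hold positions without score or read count, which leaves read depth unknown.

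Trimethylation of lysine 4 of histone H3 is deposited by the SET1 and MLL complexes and marks the nucleosomes around start sites of genes, above all those in CpG islands, where CXXC domain proteins bind unmethylated CG. It is found at most promoters occupied by RNA polymerase II and, next to H3K27me3, at some silent developmental promoters. Wide domains of the mark are known at genes that define a cell's identity. In T cells these include the transcription factor and T cell receptor genes of the lineage.

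The promoters printed as examples are those of Tcf7, Cd3e, Lck, Pax6 and Krt5. They were taken from RefSeq on GRCm38.p6 as 250 bases before to 50 after the start. They are written 5′ to 3′ with every CG in capitals. Tcf7 encodes the T lineage factor TCF-1. The outermost start listed for it, at chr11:52282965-52283264 (minus strand), has 45 CG and a peak in both replicates. Its window lies inside the gene model, which begins further upstream at 52283383. Cd3e, a signalling chain of the T cell receptor, has 8 CG and a peak in both replicates at chr9:45009562-45009861 (minus strand). Lck, the kinase that starts receptor signalling, is shown at its outer start, chr4:129573592-129573891, with 7 CG and no peak, and at its inner start, chr4:129558323-129558622, with 5 CG and a peak in both replicates (both minus strand). Pax6, an eye and brain factor, is shown at the outer start, chr2:105668646-105668945, with 18 CG and no peak, and at an inner start, chr2:105682213-105682512, with 16 CG and a peak in both replicates (both plus strand). Krt5, a keratin of basal epidermis, has 6 CG and no peak at chr15:101712856-101713155 (minus strand). Actb was not printed.
Tcf7: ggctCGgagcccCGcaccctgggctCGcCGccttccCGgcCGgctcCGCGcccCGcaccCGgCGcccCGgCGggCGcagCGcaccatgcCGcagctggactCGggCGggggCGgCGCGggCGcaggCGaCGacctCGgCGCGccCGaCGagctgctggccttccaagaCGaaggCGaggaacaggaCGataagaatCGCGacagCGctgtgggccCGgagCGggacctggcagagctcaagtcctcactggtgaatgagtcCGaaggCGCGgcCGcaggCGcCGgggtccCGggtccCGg
Cd3e: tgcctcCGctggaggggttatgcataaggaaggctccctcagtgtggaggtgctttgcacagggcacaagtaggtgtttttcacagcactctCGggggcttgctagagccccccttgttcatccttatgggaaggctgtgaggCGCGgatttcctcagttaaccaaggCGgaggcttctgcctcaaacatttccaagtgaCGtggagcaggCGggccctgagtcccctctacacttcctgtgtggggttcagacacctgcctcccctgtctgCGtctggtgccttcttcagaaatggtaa
Lck outer start: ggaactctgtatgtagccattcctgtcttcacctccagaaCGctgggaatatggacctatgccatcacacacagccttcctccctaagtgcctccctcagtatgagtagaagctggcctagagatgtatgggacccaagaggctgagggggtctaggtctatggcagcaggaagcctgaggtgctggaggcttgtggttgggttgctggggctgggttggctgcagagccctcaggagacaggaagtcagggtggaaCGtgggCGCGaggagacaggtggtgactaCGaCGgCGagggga
Lck inner start: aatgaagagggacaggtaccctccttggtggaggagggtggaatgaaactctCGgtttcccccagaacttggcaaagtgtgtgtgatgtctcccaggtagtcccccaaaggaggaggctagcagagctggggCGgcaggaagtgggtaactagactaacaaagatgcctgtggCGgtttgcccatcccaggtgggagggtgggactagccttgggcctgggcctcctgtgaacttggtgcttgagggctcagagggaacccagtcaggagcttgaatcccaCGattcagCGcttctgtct
Pax6 outer start: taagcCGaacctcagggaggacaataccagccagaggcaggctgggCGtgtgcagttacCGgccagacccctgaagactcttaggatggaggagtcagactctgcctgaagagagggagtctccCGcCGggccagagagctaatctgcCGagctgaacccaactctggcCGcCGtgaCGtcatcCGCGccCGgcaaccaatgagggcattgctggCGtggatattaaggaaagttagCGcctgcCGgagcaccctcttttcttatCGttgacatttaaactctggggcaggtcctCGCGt
Pax6 inner start: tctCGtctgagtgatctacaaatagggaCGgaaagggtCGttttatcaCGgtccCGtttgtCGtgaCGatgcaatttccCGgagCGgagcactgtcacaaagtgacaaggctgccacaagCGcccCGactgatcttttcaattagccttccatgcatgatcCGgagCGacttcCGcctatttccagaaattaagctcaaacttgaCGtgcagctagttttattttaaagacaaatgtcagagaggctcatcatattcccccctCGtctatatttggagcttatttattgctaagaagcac
Krt5: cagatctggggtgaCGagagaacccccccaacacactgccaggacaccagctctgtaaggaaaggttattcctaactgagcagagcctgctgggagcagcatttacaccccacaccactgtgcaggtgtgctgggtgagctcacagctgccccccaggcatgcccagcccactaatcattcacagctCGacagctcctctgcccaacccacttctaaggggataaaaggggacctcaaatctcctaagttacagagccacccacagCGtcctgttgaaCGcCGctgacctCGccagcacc

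Replicate 1 held 17939 autosomal intervals that cover 26.7 Mb, and replicate 2 held 17530 that cover 26.1 Mb. Their median widths were 1355 and 1364.5 bp. An H3K4me3 peak lay within 1 kb of a gene end in both replicates at 12091 of 47042 autosomal genes (25.7%), in 1 replicate at 129 (0.274%) and in neither at 34822 (74.0%). Of 20665 protein-coding genes, 9285 had a peak in both (44.9%), 54 in 1 (0.261%) and 11326 in neither (54.8%). The share of coding genes with a peak was 45.1% in replicate 1 and 45.0% in replicate 2, a mean of 45.1% ± 0.0684 (SD, n = 2). The class of a gene thus rarely depended on the replicate. By chromosome, the share of coding genes with a peak in both ran from 35.4% on chromosome 7 to 55.4% on chromosome 11.

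The 1 kb limit cut through few genes. A merged peak overlapped the end itself at 8521 coding genes and lay 1 to 500 bp away at 523. Just inside the limit, over 500 and up to 1000 bp away, were 295 coding genes, 263 with a peak in both replicates and 32 with a peak in 1. Just outside, over 1000 and up to 1500 bp away, were 235. Of the 54 coding genes with a peak in 1 replicate, 21 lay beside a merged peak that both replicates shared but that reached into the window in 1 replicate only, with a median distance of 967 bp. The other 33 lay beside a peak of 1 replicate with a median width of 235 bp. Vpreb1, the surrogate light chain of early B cells, was one of the former, with 1649 bp in replicate 1 at 967 bp from the gene and no interval of replicate 2 within the window. Ebf1, a B lineage factor, was one of the latter, with 218 bp in replicate 2 and 0 in replicate 1.

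**Figure D1:**
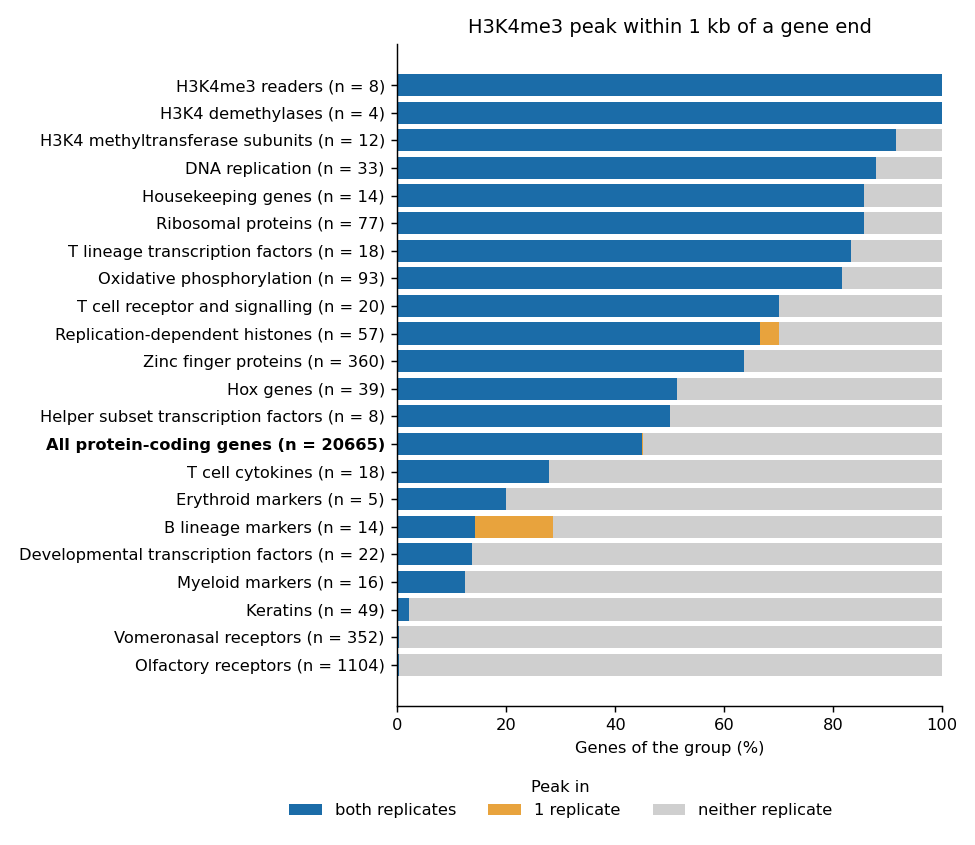
Share of the autosomal genes of each group, in percent, with an H3K4me3 peak within 1 kb of a gene end in both replicates, in 1 replicate or in neither; n is the number of genes and the bar in bold is all 20665 protein-coding genes (44.9% in both). The groups run from 8 of 8 readers of the mark to 3 of 1104 olfactory receptors.

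Most T lineage genes carried the mark. Of 18 T lineage transcription factor genes, 15 had a peak in both replicates (83.3%, beside 44.9% of all coding genes) with a median width of 3425 bp, and 3 had none. Tcf7 had 14114 bp in replicate 1 and 12753 bp in replicate 2. Bcl11b, which fixes T lineage commitment, had 7792 and 7850 bp, close to each other. Tox, a factor of T cell development, had 7426 and 7066 bp. Gata3, needed for early T cells and the Th2 subset, was at the narrow end with 1650 and 1721 bp, although its peak began 748 bp from the gene end. Notch1, Ets1 and Satb1 had no peak at an end. Notch1, the receptor that drives T lineage choice, held 1 merged peak inside the gene, and Ets1, a lymphoid ETS factor, held 9. Satb1, a chromatin organizer of thymocytes, held none, and the nearest lay 327036 bp away.

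Of 20 genes of the T cell receptor and its signalling, 14 had a peak in both replicates (70%) with a median width of 3848 bp, the largest median of the 4 T cell groups. Ptprc, the CD45 phosphatase, had 5392 bp in replicate 1 and 5326 bp in replicate 2. Thy1, a T cell surface glycoprotein, had 4810 and 4761 bp. Cd3g and Cd3d, 2 chains of the receptor, share a merged peak of 5517 bp, of which the interval at Cd3g was 5507 bp in replicate 1 and 2612 bp in replicate 2. Cd4, the helper coreceptor, had 1406 and 1310 bp and was among the narrow ones. Neither Cd8a nor Cd8b1, the cytotoxic coreceptor, had a peak nearby. Their nearest merged peaks lay 59912 and 49600 bp away. Cd6, a receptor of the CD5 family, had none within 11722 bp, while H3K9Ac lay 497 bp and H3K27Ac 318 bp from the gene. Cd247, the zeta chain, Trat1, a receptor adaptor, and Lck had 2, 7 and 1 merged peaks inside the gene and none at an end.

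Maf, Prdm1, Irf4 and Bcl6, 4 of 8 helper subset factors, had a peak in both replicates (50%), a share near the 44.9% of all coding genes. Irf4, a factor of activated lymphocytes, had 3775 and 3585 bp, and Prdm1, which drives effector differentiation, had 1338 and 1411 bp. Tbx21, the Th1 factor, Eomes and Stat4 were among the 4 with none, and the nearest merged peak lay 10402 bp from Tbx21, 3405 bp from Eomes and 6119 bp from Stat4. Of 18 cytokine genes, 5 had a peak in both replicates (27.8%) and 13 had none (72.2%), beside 44.9% and 54.8% of all coding genes. Tgfb1, which encodes the suppressive cytokine TGF-β1, had 4047 and 3993 bp. Tnf and Lta, neighbours in the MHC, share a peak of 2104 and 1869 bp, and Ltb beside them had 2048 and 2017 bp. Csf2, which encodes GM-CSF, had 618 and 545 bp, far narrower. Il2, the T cell growth factor, had no peak within 78073 bp and Ifng, the Th1 cytokine, none within 40228 bp.

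The label of a T cell line was set beside markers of other blood lineages, where all coding genes give 44.9% with a peak in both replicates and 54.8% with none. Of 14 B lineage genes, 2 had a peak in both replicates (14.3%), 2 in 1 and 10 in neither (71.4%), against 14 of 20 T cell receptor and signalling genes (70%) in both. Pou2af1, a coactivator of octamer factors, had 3572 and 3446 bp at its end, and Cd79a, a B cell receptor chain, had 2635 and 2567 bp at a distance of 512 bp. Of 16 myeloid genes, 2 had a peak in both (12.5%). They were Spi1 (559 and 553 bp), which encodes PU.1, and Cd68 (1972 and 1981 bp), a lysosomal glycoprotein, with peaks at 447 and 569 bp from the gene. The other 14 had none at an end (87.5%), among them Csf1r, Mpo and Lyz2. Of the B lineage and myeloid genes with none at an end, Pax5 and Itgam each held 1 merged peak inside the gene. Of 5 autosomal erythroid genes, Klf1, a red cell factor, had 1625 and 2263 bp at a distance of 468 bp, and the globin genes Hba-a1 and Hbb-bt had none.

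Developmental factors outside T cells were mostly bare. Of 22, 3 had a peak in both replicates (13.6%), Lhx2 and Hoxd13 among them, and 19 had none at an end. Of these 19, Pax3 held 5 merged peaks inside the gene, and Pax6, Nkx2-2 and Pax2 held 1 each. Hoxd13, the limb and digit factor, had 1500 and 1458 bp, and Lhx2, a forebrain factor, had 1228 and 1055 bp. The nearest merged peak was 568000 bp from Sox2, the pluripotency factor, and 394119 bp from Foxa2, an endoderm factor. Of 39 Hox genes, which pattern the body axis, 20 had a peak in both replicates (51.3%) and 19 had none, a share near the 44.9% of all coding genes. Their median width was 3076.5 bp.

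Sensory receptor and keratin genes were nearly empty of the mark. The 3 of 1104 olfactory receptor genes with a peak in both replicates (0.272%) were Olfr149 (1081 and 1152 bp), Olfr59 (743 and 585 bp) and Olfr286 (1343 and 1319 bp). Vmn1r4 was the 1 of 352 vomeronasal receptor genes, with 2095 and 2098 bp, and Krt27, a keratin of the hair root, was the 1 of 49 keratins, with 519 and 547 bp. None of these families had a gene with a peak in 1 replicate. Zinc finger genes, the largest family of DNA-binding factors, had the mark at 229 of 360 (63.6%), with a median width of 1761 bp.

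Genes that every cell uses stood at the other end. Of 14 housekeeping genes, 12 had a peak in both replicates (85.7%) and a median width of 3260 bp. Gapdh, the glycolytic enzyme, had 5121 bp in replicate 1 and 5163 bp in replicate 2, and Actb, the cytoskeletal actin, had 4219 and 4255 bp. The mark also lay at 66 of 77 ribosomal protein genes (85.7%, median 2639 bp), 76 of 93 genes of oxidative phosphorylation (81.7%, median 1994.5 bp) and 29 of 33 DNA replication genes (87.9%, median 2057 bp). Ribosomal protein genes thus had wider peaks than the median of 2005 bp over all coding genes with a peak in both. Replication-dependent histone genes, which are short and lack introns, had it at 38 of 57 (66.7%) with narrow peaks of 1256 bp at the median.

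Most genes for enzymes and readers of H3K4 methylation had a peak. All 4 H3K4 demethylase genes and all 8 reader genes had a peak in both replicates, as had 11 of 12 genes for methyltransferase subunits. The share was 44.9% for all coding genes, 85.7% for the housekeeping genes and 87.9% for the DNA replication genes. Setd1b, a catalytic subunit of a SET1 complex, had 8241 and 8222 bp in a peak that it shares with Rhof. Kmt2a, which encodes MLL1, had 4727 and 4686 bp. Kdm5b, a demethylase of the mark, had 1158 and 1023 bp, the narrowest of the 4 erasers. The exception was Dpy30, a core subunit of these complexes, with no peak at the ends of its gene model and 1 merged peak inside.

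Some genes without a peak at an end had one at another start site. The outer start of Lck lay 1215 bp from the nearest merged peak, but its inner start, at 129558372, lay in a peak of 2876 bp. Dpy30 likewise had no peak at its outer start, 6784 bp from the nearest, and a peak of 2023 bp over the inner start. The inner start of Pax6 lay in a peak of 1061 bp, although the nearest H3K9Ac and H3K27Ac peaks were 205440 and 205517 bp from the gene and the nearest H3K27me3 peak 11697 bp. Of 8872 coding genes with no peak at an end and a RefSeq promoter, 494 (5.57%) had a peak within 1 kb of an annotated start in both replicates. Of 11326 coding genes with no peak at an end, 1455 (12.8%) held a merged peak in the gene body. The housekeeping gene Ywhaz and the replication genes Orc1, Orc4 and Rfc1 were among them, each with H3K9Ac, H3K27Ac and ATAC-seq peaks in the gene too.

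Some other genes of these families had no H3K4me3 peak in or near the gene. The nearest merged peak was 8721 bp from Rps29, a protein of the small ribosomal subunit, and the nearest H3K9Ac peak was 8885 bp away. Rpl3 and Rpl15, of the large subunit, stood 7155 and 27981 bp from the nearest merged H3K4me3 peak. Mcm4, a subunit of the replicative helicase, had none within 28914 bp, yet an H3K27Ac peak lay 1074 bp away. Rps21 had none within 12487 bp, yet an H3K9Ac peak lay 19 bp from the gene. These genes thus differed in whether another active mark was close, and why was not tested. The ribosomal protein genes without a peak at an end also included Rpl13a, Rpl19, Rpl41 and the paralogs Rpl10l, Rpl32l and Rpl39l. Among oxidative phosphorylation genes those without one at an end included Cox4i2, Cox5a, Cox6b2, Cox7a1, Cox7a2, Cox7b2, Cox8b, Cox8c, Ndufa6, Ndufb4b, Ndufb4c, Ndufb5, Ndufs7, Ndufs8, Atp5g2 and Atp5pb, which include muscle and testis forms of cytochrome c oxidase. Of the genes listed here, Rpl19, Cox5a and Cox7a2 held H3K4me3, H3K9Ac, H3K27Ac and ATAC-seq peaks inside the gene. The 17 histone genes without an H3K4me3 peak at an end lie in the clusters on chromosomes 3 and 13. H3c15 and H3c6 had a peak in 1 replicate.

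Peaks sat at starts, not at far ends. Of 13974 coding genes longer than 3 kb whose strand the promoter table gives, 6451 had a peak in both replicates at the start only, 253 at the far end only and 406 at both. The start carried a peak in 49.2% of them in replicate 1 and 49.1% in replicate 2, against 4.92% and 4.78% for the far end. Among 659 far ends with a peak, 482 (73.1%) had an end of another gene within 2 kb, against 3340 of 13278 (25.2%) far ends without one. Of 839 genes with 2 starts over 5 kb apart, 120 had a peak at both starts, 256 at the outer only, 99 at the inner only and 364 at neither. Runx3, a factor of CD8 T cells, had peaks at both its distal and proximal starts, 1206 and 3103 bp wide. Zap70, the kinase recruited after Lck, had 3268 bp at its outer start and none within 10755 bp of the inner one.

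The mark reached further into the gene than away from it. The 5919 coding starts read here lay inside a merged peak and were the only start listed for their gene. From them the peak reached a median of 714 bp upstream and 1171 bp downstream. Starts of neighbouring genes were not excluded. The upstream medians were 697 bp in replicate 1 and 689 bp in replicate 2, and the downstream medians 1149 and 1136 bp. The 2 replicates thus differed by far less than the 2 sides. The peak extended more downstream than upstream at 78.5% of these starts (78.6% in replicate 1 and 78.1% in replicate 2).

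**Figure D2:**
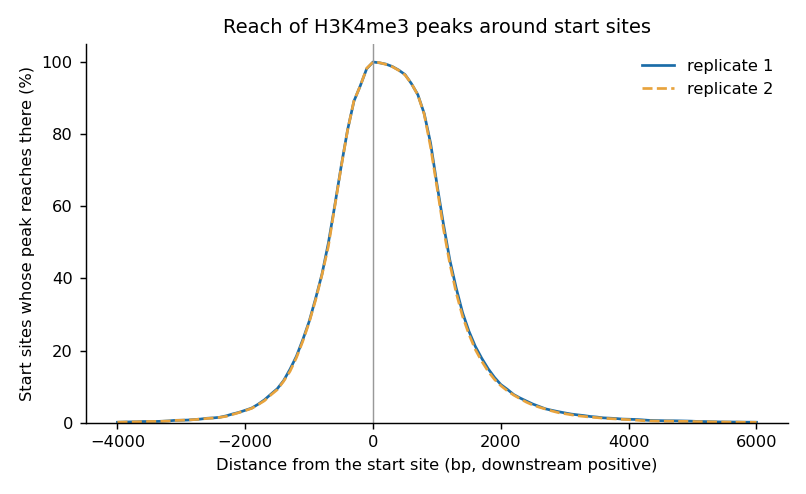
Percentage of coding start sites inside an H3K4me3 peak whose peak reaches a given distance, in bp, with downstream positive; the solid line is replicate 1 and the dashed line replicate 2. Both lines fall more slowly downstream, where the median reach was 1149 and 1136 bp, than upstream, where it was 697 and 689 bp.

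Peak width varied among genes far more than between replicates. At 9285 coding genes with a peak in both replicates, the widest merged peak had a median of 2005 bp, with quartiles of 1580 and 2577 bp, and 450 genes (4.85%) had one of 4000 bp or more. The medians per replicate were 1958 and 1942 bp (SD 11.3, n = 2). At 97.3% of the genes the widths of the 2 replicates lay within 1.25-fold, and at 29 they differed over 2-fold. Across these genes the correlation of the log2 widths of the 2 lists was 0.974, a description over genes that share both libraries. At the 54 genes with a peak in 1 replicate the median was 315 bp.

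The 10 widest peaks at coding genes lay at lymphoid genes among others. Tcf7 came first with a merged width of 14114 bp (chr11:52272867-52286980). Irf2bp2, a transcriptional corepressor of IRF2, followed with 13709 bp (13606 and 10943 bp in the replicates), and Ikzf1, the lymphoid factor Ikaros, with 13571 bp (13477 and 13545 bp). Ikzf2, which encodes Helios of the same family, had 11109 bp in replicate 1 and 11167 bp in replicate 2. Abhd13 and Lig4, the latter a ligase of V(D)J recombination and end joining, share a merged peak of 10331 bp that was made of 2 intervals in replicate 1 and 3 in replicate 2. Pcdh7, a protocadherin, had 9853 bp in 2 intervals of each replicate. Lpxn, a leukocyte adaptor, and Zfp91 share 9395 bp.

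**Figure D3:**
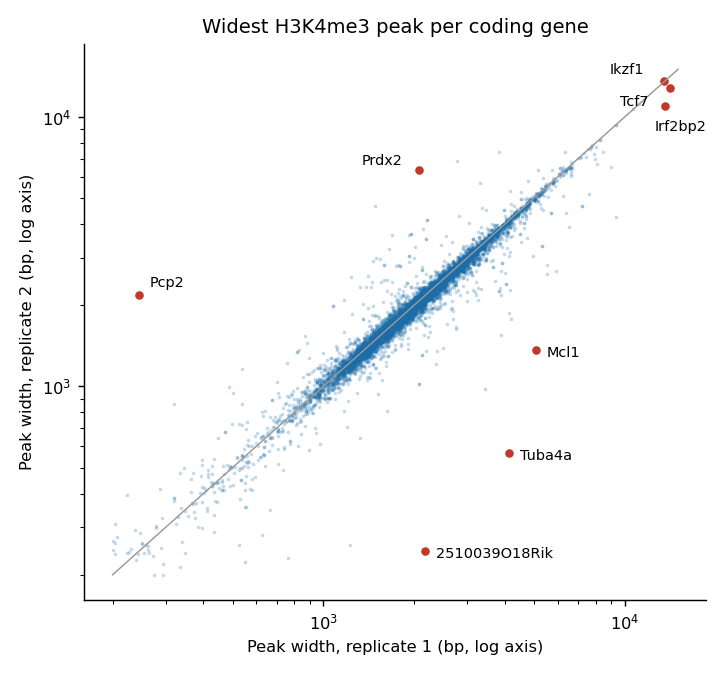
Width of the widest H3K4me3 interval touching the windows of each of 9285 coding genes, in bp on log axes, in replicate 1 (horizontal) and replicate 2 (vertical), with equal widths on the grey line. Most genes lie on the line (97.3% within 1.25-fold), and the genes in red are among the widest (Tcf7, Irf2bp2, Ikzf1) or the most unequal (Pcp2, Prdx2, Mcl1, Tuba4a, 2510039O18Rik).

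The peaks of the most unequal genes were mostly split, not lost, in 1 replicate. Tuba4a, an α-tubulin, had 4123 bp in replicate 1 and 567 bp in replicate 2 at its windows, but replicate 2 covered 3617 bp of the merged peak in 2 intervals. Mcl1, a survival factor of the BCL2 family, had 5076 and 1361 bp, and replicate 2 covered 5023 bp in 3 intervals. 2510039O18Rik had 2173 and 246 bp, with 2050 bp covered in 2 intervals of replicate 2. Pcp2, a Purkinje cell gene, went the other way with 245 and 2188 bp, and replicate 1 covered 2088 bp in 2 intervals. Prdx2, a peroxiredoxin, had 2080 and 6334 bp. Replicate 1 covered 6356 bp of the merged peak in 2 intervals, the wider of 5133 bp, and its 2080 bp interval belonged to another peak. Mafg and Selp (wider in replicate 2) and Capsl (wider in replicate 1) were split as Tuba4a was. At Cnn2 and Ccdc57 each replicate had 1 interval of similar width in the merged peak (4550 and 4650 bp, 3445 and 3381 bp). The interval of 1 replicate ended outside the gene's windows. The width read there, 1481 bp for Cnn2 in replicate 1 and 981 bp for Ccdc57 in replicate 2, came from another peak.

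Most genes with the mark had a single peak. Of 9285 coding genes with a peak in both replicates, 7078 (76.2%) had 1 merged peak over the gene and its windows, and 337 (3.63%) had 4 or more. Jazf1, a zinc finger cofactor, had 23 merged peaks, the most of any coding gene, and none within 1 kb of its ends. Pde4d, a cAMP phosphodiesterase, had 18 and likewise none at an end. Arhgap26, a GTPase-activating protein, had 16, and Exoc4, of the exocyst, had 15. Cdk6, a G1 kinase, Foxp1, a lymphoid forkhead factor, Umad1 and Dlgap1 had 14 each, and of these Dlgap1 had none at an end.

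Merging gave 17931 autosomal H3K4me3 peaks, of which 16567 (92.4%) held intervals of both replicates, 955 of replicate 1 only and 409 of replicate 2 only. The 1364 peaks of 1 replicate (7.61%) were narrow, with a median of 248 bp against 1495 bp for shared peaks, and they made up 1.36% of the base pairs. Of the intervals of replicate 1, 5.32% touched none of replicate 2, and of those of replicate 2, 2.34% touched none of replicate 1. Presence in both replicates was more frequent in wider peaks. It was 27.4% for merged peaks of 200 to under 300 bp, 83.4% for 300 to under 500 bp and 99.05% for 500 to under 1000 bp, and all 4366 peaks of 2000 to under 4000 bp and all 536 wider ones were shared. Where a shared peak was 1 interval in each list, the edges of the 2 lists lay a median of 32 bp apart.

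**Figure D4:**
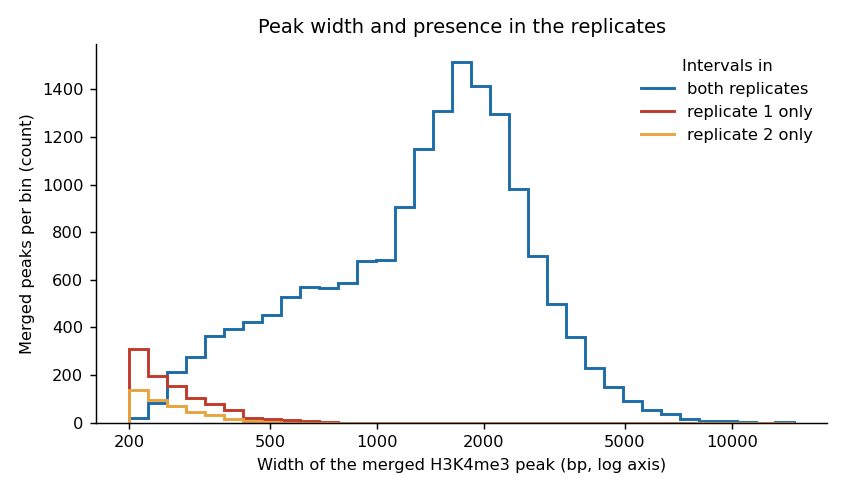
Number of merged autosomal H3K4me3 peaks per bin of width, in bp on a log axis, for peaks with intervals of both replicates, of replicate 1 only and of replicate 2 only. The peaks of 1 replicate crowd at the narrow end with a median of 248 bp, and shared peaks have a median of 1495 bp.

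Few peaks of 1 replicate lay at genes' ends. A gene end of any type was within 1 kb of 12.6% of them, against 58.1% of shared peaks. Conversely, 58.1% lay in a gene interior, against 26.7% of shared peaks, and 29.3% lay at neither, against 15.2%. They were often beside another H3K4me3 peak, since the next merged peak was within 1 kb for 47.5% of them and for 18.97% of shared peaks. The widest peak of 1 replicate was that at H3c15, a replication-dependent H3 gene, with 1808 bp in replicate 1 only (chr3:96236851-96238658). The next, 1588 bp in replicate 2 only, lay at Actrt3, Mynn and a tRNA gene, n-TVaac8, and touched H3K9Ac, H3K27Ac and ATAC-seq peaks. The third, 1412 bp in replicate 1 only (chr17:6270105-6271516), lay in a gene interior with no gene end within 1 kb. The other 7 of the 10 widest were 645 to 744 bp wide, had no gene end within 1 kb and came from replicate 1.

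The lists of the other sets played no part in defining these peaks. H3K9Ac touched 90.8% of shared H3K4me3 peaks and 44.3% of those of 1 replicate, H3K27Ac 92.8% and 65.5%, and ATAC-seq 78.1% and 32.9%, over merged lists. By replicate of the other set, the shares for peaks of 1 H3K4me3 replicate were 39.1% and 36.4% for H3K9Ac, 62.5% and 62.8% for H3K27Ac, and 25.3% and 28.9% for ATAC-seq. At shared peaks they were 88.9% and 88.9%, 91.4% and 91.9%, and 71.8% and 75.4%. Among peaks under 300 bp the picture changed. There H3K9Ac touched 40.9% of 384 shared peaks and 41.6% of 1017 peaks of 1 replicate, H3K27Ac 54.9% and 62.6%, and ATAC-seq 38.0% and 32.7%. H3K27me3 touched 1.68% of shared peaks and 1.69% of those of 1 replicate over all widths, and 3.65% and 1.77% under 300 bp. H3K36me2 touched 51.0% and 52.4% over all widths, and 38.3% and 51.1% under 300 bp.

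Genes with the mark had the other active marks as well. Of 9285 coding genes with an H3K4me3 peak in both replicates, 97.7% had an H3K9Ac peak in both of its replicates within 1 kb of an end, 97.6% an H3K27Ac peak and 86.7% an ATAC-seq peak, and 7997 (86.1%) had all 3. Of 11326 coding genes without an H3K4me3 peak at an end, some of which held one inside the gene, these shares were 0.344%, 1.25% and 0.689%. H3K27me3, the Polycomb mark, lay at the ends of 1.44% of genes with H3K4me3 at an end and 18.5% of genes without it there. H3K36me2 lay at 58.4% and 14.9%. The 110 genes (1.18%) with H3K4me3 in both replicates and no acetylation peak within 1 kb of an end in any library had narrow peaks. Their median was 589 bp against 2067 bp at genes with all 3 sets. At Alox12 and Ankrd17, the widest among them, the H3K4me3 peak lay 820 and 891 bp from the gene. At others, such as Ptpn14, it lay over the gene end. Whether the peaks themselves touched acetylation was not counted for these genes. The 134 genes with both H3K4me3 and H3K27me3 in both replicates had a median of 1540 bp.

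The share of coding genes with a peak at an end was close for the 3 histone marks. It was 45.1% and 45.0% in the H3K4me3 libraries, 44.4% and 44.4% in the H3K9Ac libraries, 44.9% and 44.9% in the H3K27Ac libraries and 40.3% and 41.2% in the ATAC-seq libraries. The mean for H3K4me3 was higher by 0.675 percentage points than for H3K9Ac, by 0.150 than for H3K27Ac and by 4.32 than for ATAC-seq. The library groups did not overlap in any of these comparisons, but an exact two-sided permutation test of 2 against 2 libraries cannot go below p = 0.333, the value each gave (adjusted 0.333 over 3 comparisons). With windows of 3 kb outside to 2 kb inside, the difference from H3K27Ac turned to -0.0556. The median interval was 1355 and 1364.5 bp wide for H3K4me3, 961 and 955 bp for H3K9Ac, 822 and 810 bp for H3K27Ac and 418 and 428 bp for ATAC-seq.

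Promoters of marked genes were rich in CG. RefSeq promoters were at hand for 81.7% of coding genes on the 18 autosomes other than chromosome 18. The 300 bases were read at the outermost listed start, which can lie inside the gene model. They held a median of 22 CG (quartiles 15 and 29) in 7542 genes with a peak in both replicates. In 8872 genes with none the median was 5 (2 and 15). The observed to expected ratio of CG was 0.794 and 0.288. The 43 genes with a peak in 1 replicate had a median of 8. By CG number, a peak in both replicates was found at 3.91% of genes with 0 or 1 CG, 29.0% with 5 to 9, 66.2% with 15 to 19, 73.3% with 20 to 24 and 71.5% with 25 or more. Width changed less, from a median of 1912 bp at 0 or 1 CG to 1732 bp at 2 to 4 and 2229 bp at 25 or more. The 9 T cell receptor and signalling genes with a peak and a promoter in the table had a median of 4 CG (0 to 31), and Cd3e above has 8.

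**Figure D5:**
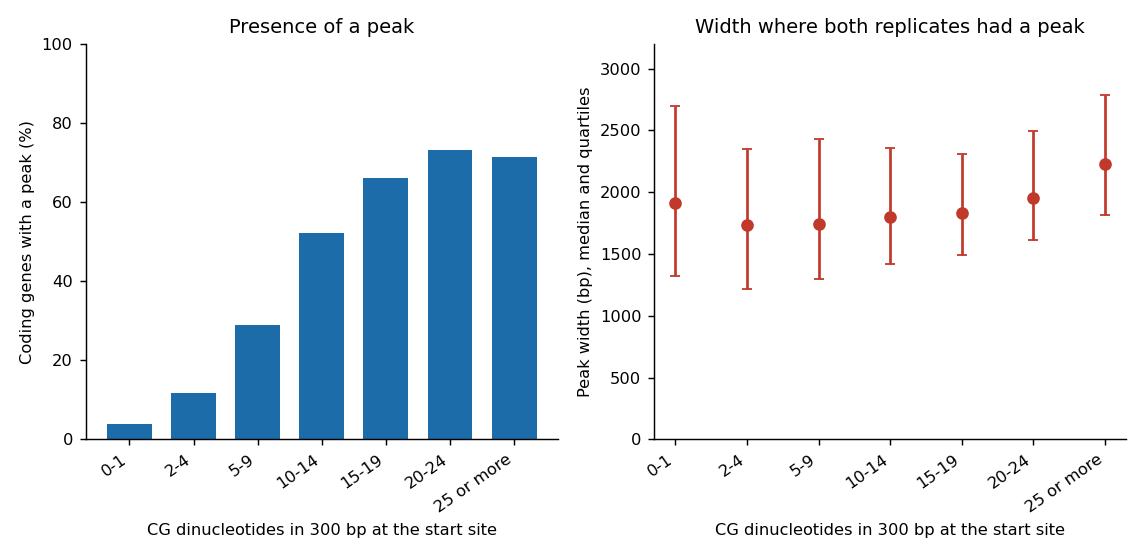
Left, percentage of coding genes with an H3K4me3 peak in both replicates by the number of CG in the 300 bp at the start, which is 3.91% at 0 or 1 CG, highest at 20 to 24 (73.3%) and 71.5% at 25 or more. Right, width of the peak at those genes in bp, with points for medians and bars for quartiles, from 1912 bp at 0 or 1 CG to 2229 bp at 25 or more.

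Short motifs were counted on both strands of the same windows, where a match is a run of letters and not a site. GGGCGG, the core of a GC box, was in 66.9% of promoters with a peak in both replicates and 30.8% of those with none. It was in 47.3% of all these coding promoters and 35.7% of all 32851 listed promoters. The 32851 take in every listed start and are not limited to coding genes. CCGGAAG, an ETS core, was in 21.6%, 4.36%, 12.3% and 8.86%, in the same order. The core motif TATAAA, bound by TBP upstream of some starts, went the other way with 6.66%, 19.4%, 13.5% and 13.6%. CCAAT was in 39.9%, 38.5%, 39.1% and 37.4%, close to each other. TGCGCA, of NRF1, was in 16.0%, 5.16%, 10.1% and 7.76%. The core of CREB and ATF sites, TGACGT, was in 13.2%, 5.12%, 8.82% and 7.51%. AAGATGG, of YY1, was in 7.88%, 5.13%, 6.40% and 6.34%. The GC box, ETS, NRF1 and CREB motifs each contain a CG, and no correction for CG content was made.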

How the data were processed

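EL4 ChIP-seq libraries for H3K4me3 (2 replicates) were compared with 10 lists of other sets. The authors deposited one list of called intervals per library, with chromosome, start and end in bp and no score, count or normalization, so the depth of each sample and the precision it gives are unknown. Per the paper's methods and the submitters' processing notes, reads were aligned with STAR 2.5 to GRCm38, unique alignments were kept, reads on sex chromosomes were discarded, duplicates were treated with Picard, and narrow peaks were called with MACS2 against the input.

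Intervals of both replicates that overlap or adjoin were merged, as bedtools does, and a peak was assigned to a gene if it lay within 1 kb of either end of the RefSeq GRCm38.p6 gene model. Width per gene is that of the widest peak touching its windows. The gene table has no strand, so strand came from the RefSeq promoter table, which covers 79.6% of coding genes on 19 autosomes and 81.7% without chromosome 18. CpG and motif counts used the latter. The overlap functions were tested on simulated intervals and against bedtools in 8 counts, of which 0 differed. Libraries were compared by exact permutation with a threshold of 0.05. Tools were Python 3.11.15, numpy 2.4.6, pandas 2.3.3, scipy 1.17.1, matplotlib 3.10.9 and bedtools 2.31.1.

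The members and lists were chosen with earlier results of these data known. Genes were named as list members outside a list's most common class with up to 4 examples per class (zinc finger, Hox and histone genes by count), the 10 with the widest peak, the 10 widest peaks of 1 replicate, the 5 per direction most unequal between replicates and the 5 with most peaks. Others, such as Runx3, Zap70 and genes named for their distance to another set, were chosen after their values were seen. Some genes that the rule names are not reported here. Alternatives were other windows, midpoints, width minimums, merging rules, overlaps and each replicate left out. A comparison of peaks under 300 bp was added after seeing the data.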

Additional observations from a re-analysis of the deposited data

Results flagged for a closer look

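The H3K4me3 lists held intervals on sequences outside the autosomes that no comparison above used, although the methods describe the removal of reads on the sex chromosomes. On chromosome X there were 536 intervals in replicate 1 and 529 in replicate 2, with median widths of 1224.5 and 1281 bp. They lay at an end of 281 of 966 coding genes of that chromosome in both replicates (29.1%) and at 0 in 1 replicate. On unplaced scaffolds there were 102 intervals in replicate 1 and 68 in replicate 2, on 14 scaffolds in each, with median widths of 374.5 and 400.5 bp. Neither list held an interval on chromosome Y.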

How the results depend on the processing

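The share of all genes with H3K4me3 in both replicates (25.7%) became 24.5% with windows of 500 bp, 27.7% with 2 kb, 28.9% with 3 kb outside to 2 kb inside, 22.3% by peak midpoint, 24.98% with intervals of at least 500 bp, 25.8% when 1 merged peak had to be touched by both replicates, 25.1% with chromosome X and 35.1% at annotated starts, which exist for fewer genes. For coding genes (44.9%) the same settings gave 43.5%, 47.0%, 48.1%, 40.0%, 44.3%, 45.0%, 44.2% and 46.5%. Leaving out a replicate gave 25.8 to 25.9% and 45.0 to 45.1%. The median width (2005 bp) became 1900 bp for the intersection, 2055 bp with gaps up to 1000 bp merged and 2063 bp summed, and 1942 to 1958 bp without a replicate. The share of peaks of 1 replicate (7.61%) fell to 4.65% with such gaps merged.

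The difference between peaks of 1 replicate and shared peaks in touching H3K9Ac (-46.5 percentage points) was -55.9 with the intersected H3K9Ac replicates, -25.1 for peaks of at least 500 bp, -52.5 to -49.8 without a replicate of H3K9Ac and 0.708 for peaks under 300 bp. For H3K27Ac (-27.2) the same settings gave -30.9, -8.06, -29.0 and 7.69, with -28.8 for an overlap of 50% and -27.0 at midpoints. For ATAC-seq (-45.2) they gave -47.5, -41.9, -46.5 and -5.28, with -53.5 and -27.3. The cause was not tested. The CG difference (17) was 16 with the wider windows, 17.5 for genes without another gene end within 2 kb and 0.507 as observed to expected ratio. The difference from H3K27Ac in the share of coding genes turned to -0.0556 with the wider windows. With the replicate number as a block, the differences from H3K9Ac, H3K27Ac and ATAC-seq stayed at 0.675, 0.150 and 4.32 with an exact p = 0.5, the smallest that 2 pairs allow, so neither fit could pass the threshold. Nothing in the labels says that equal numbers pair the samples. Unknown read depth limits what a missing peak shows.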

Other observations

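H3K4me3 was also found at genes that encode no protein. A peak lay within 1 kb of an end in both replicates at 1972 of 12408 long noncoding RNA genes (15.9%), 142 of 1136 miRNA genes (12.5%), 141 of 1286 snoRNA genes (11.0%) and 153 of 8884 pseudogenes (1.72%). At tRNA genes, which RNA polymerase III transcribes, it lay at 210 of 391 (53.7%), with a median width of 2208 bp. Of all autosomal genes, 25.7% had a peak in both replicates. Peaks that also touched an end of another gene were not set apart.

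Among antigen receptor segments, 17 of 394 V segments (4.31%) and 23 of 82 J segments (28.0%) had a peak in both replicates. So had 6 of 20 constant regions (30%), beside 25.7% of all autosomal genes. The median widths were 751, 4768 and 5652.5 bp in that order. The widest of these peaks, 12124 bp, lay at Trgv2, Trgv1, Trgj4 and Trgc4 of the T cell receptor γ locus (chr13:19336575-19348698). Other wide peaks without a coding gene end lay at the noncoding gene Gm41905 (11427 bp) and at chr15:6578586-6589034, with no gene end of any type within 1 kb (10449 bp).

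H3K9Ac and H3K27Ac lay at the ends of 33 coding genes in all 4 libraries without H3K4me3 there. They were 0.291% of the 11326 coding genes without H3K4me3 at an end. At some the nearest H3K4me3 peak lay just past the 1 kb limit, as at Ackr4 (1016 bp) and Crybb1 (1069 bp). At others it lay further away, as at Cd6 (11722 bp).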
